A study of Mus musculus with 2 samples.

Results

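The proteasome genes were followed in naive CD8+ T cells with and without Bcl11b, a zinc-finger transcription factor of T cells. The members are the array's gene spots whose gene name begins with Psm, followed by a letter from a to g and a number. That rule found 44 gene names on 69 probes, of 41174 gene probes in all. Of these names, 15 belong to the 20S core (Psma and Psmb), 5 to the immunoproteasome and its activator (Psmb8, Psmb9, Psmb10, Psme1 and Psme2), 20 to the 19S cap (Psmc and Psmd) and 4 to none of these. One of the 4, Psmc3ip, is not a subunit but a cofactor of meiotic recombination that the rule matched by name.

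Knockout cells came from Bcl11bF/F/dLck-iCre mice, in which both floxed Bcl11b alleles can be excised by a Cre recombinase under the distal Lck promoter, active late in T cell development. Control cells came from wild type mice, and both genotypes have the background strain C57BL/6. The labels give no age and do not say whether the controls carry the Cre or how many mice gave each sample. In both genotypes CD8+ T cells with low CD44 and low CD25 were sorted, with a stated purity of more than 90%. On each of 2 two-colour Agilent whole-genome arrays the knockout RNA was dyed with Cy5 and the wild-type RNA with Cy3, so n = 2 ratios. With both arrays dyed the same way round, a gene's dye effect and the effect of the genotype cannot be told apart.

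The proteasome degrades ubiquitin-tagged proteins into peptides. Its 20S core is a barrel of alpha rings that gate entry and beta rings that hold the catalytic sites, and the 19S cap recognises, unfolds and feeds in the substrates. Cells under interferon gamma, and many resting lymphocytes, replace the constitutive catalytic subunits Psmb6, Psmb7 and Psmb5 with Psmb9, Psmb10 and Psmb8. These form the immunoproteasome, which together with the PA28 activator (Psme1 and Psme2) yields many of the peptides that MHC class I presents to CD8+ T cells.

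To show the regulatory sequence of catalytic subunits that replace each other, the 250 bases before the transcription start are printed for Psmb8 and the subunit it replaces, Psmb5, and for Psmb9 and its counterpart Psmb6. They come from RefSeq on GRCm38.p6, lie at chr17:34197945-34198194 (+ strand), chr14:54617996-54618245 (- strand), chr17:34187331-34187580 (- strand) and chr11:70525107-70525356 (+ strand), and read 5′ to 3′ on the gene's strand. Capitals mark matches on either strand to a gamma activated site (TTCNNNGAA), an interferon response element core (2 copies of GAAA with 2 bases between them, bound by IRF factors) or an antioxidant response element (TGACNNNGC, bound by Nrf factors).
Psmb8: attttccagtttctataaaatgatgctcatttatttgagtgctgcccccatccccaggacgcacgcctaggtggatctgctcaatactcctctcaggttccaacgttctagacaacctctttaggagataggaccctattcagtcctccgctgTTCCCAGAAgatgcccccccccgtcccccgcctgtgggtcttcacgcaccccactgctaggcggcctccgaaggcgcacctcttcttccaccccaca
Psmb5: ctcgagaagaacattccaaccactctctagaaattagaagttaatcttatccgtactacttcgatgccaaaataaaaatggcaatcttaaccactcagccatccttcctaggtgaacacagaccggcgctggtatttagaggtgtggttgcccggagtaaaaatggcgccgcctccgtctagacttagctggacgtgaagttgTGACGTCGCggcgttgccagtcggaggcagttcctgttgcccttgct
Psmb9: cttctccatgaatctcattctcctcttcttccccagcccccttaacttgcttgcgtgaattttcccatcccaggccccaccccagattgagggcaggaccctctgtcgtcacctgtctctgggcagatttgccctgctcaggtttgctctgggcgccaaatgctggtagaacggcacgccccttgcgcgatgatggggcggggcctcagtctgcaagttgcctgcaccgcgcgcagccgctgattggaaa
Psmb6: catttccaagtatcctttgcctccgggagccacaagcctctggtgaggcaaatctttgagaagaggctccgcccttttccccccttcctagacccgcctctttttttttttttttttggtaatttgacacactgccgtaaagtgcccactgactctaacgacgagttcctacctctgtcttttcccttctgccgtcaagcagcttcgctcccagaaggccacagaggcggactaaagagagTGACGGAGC
The Psmb8 window holds 1 match to the gamma activated site, beginning 97 bases before the start. The Psmb5 and Psmb6 windows each hold 1 match to the antioxidant response element, 47 and 9 bases before the start, and the Psmb9 window holds none of the 3 motifs. RefSeq promoters were matched for 37 of the 44 members, 40 windows in all, since some genes have more than 1 start. Of the 40, 1 held the gamma activated site, against 7.02% of all 32851 windows of this length; 3 held the interferon response element core, against 2.98%; and 5 held the antioxidant response element, against 10.2%. None of the 6 windows of the immunoproteasome genes held the interferon response element core. A match describes letters in this window, not a bound site.

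Signal could be measured for 40 of the 44 members, that is, on a probe well above background in the same genotype on both arrays. Psma8, Psmc3ip, Psme3 and Psmf1 had no such probe. Of the 40, 36 were well above background in all 4 channels, and Psmd1, Psmd5, Psmd10 and Psmd13 were not in wild type on array 1. Over the whole of array 1, background was clearly exceeded by 17276 of 43379 gene spots for the knockout and by 10739 for wild type. On array 2 it was exceeded by 10955 and 13446. Bcl11b itself, with its brightest probe, had log2 ratios of knockout over wild type of -1.45 and -1.73 and a mean of -1.59 ± 0.19 (SD, n = 2), with a limma adjusted p of 0.075. Its other kept probe gave -0.35 and -2.32. Over the alternatives the adjusted p of Bcl11b ran from 0.039 to 0.636, passing without background correction (0.040) and with both channels well above background on both arrays (0.039). The Y-linked Ddx3y (on 1 of its 2 probes) and Eif2s3y had signal well above background with the knockout sample of array 1 and the wild-type sample of array 2, and not with the other 2 samples. Psmd10 is the member on the X chromosome. All 13 measured T cell markers were well above background in all 4 channels.

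No proteasome gene passed the test for a difference between the genotypes. The 40 measured members held 0 calls at an adjusted p under 0.05 (limma, Benjamini-Hochberg over 9273 genes), beside 1.49% of all measured genes. Their smallest adjusted p was 0.391, for the lid subunit Psmd11, the single member with an unadjusted p under 0.05, beside 9.75% of all measured genes. Every gene shared a standard error of 0.50, so the 95% interval of a mean log2 ratio reaches 0.97 to each side, and a mean had to be at least 1.68 in size to pass. The p-values rest on a spread between 2 arrays that is pooled over all genes, not on a gene's own spread. That pooled spread may be technical in part.

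The arrays showed the members differently. On array 1 their log2 ratios ran from -0.61 to 1.99, with a median of 0.38, whereas on array 2 they ran from -0.38 to 0.69, with a median of 0.09. The medians of all measured genes were 0.05 and -0.01. On array 1, 9 of the 40 members were more than 2-fold higher in the knockout, a share of 22.5% beside 21.1% of all genes. By its brightest probe none was more than 2-fold lower there, beside 5.9% of all genes, and none passed 2-fold in either direction on array 2, beside 2.84%. On array 2, 39 of the 40 lay within 0.5 of 0, as did 8098 of all 9273 genes.

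By sign, 23 of the 40 members had ratios above 0 on both arrays (57.5%, beside 30.9% of all genes), 5 had ratios below 0 on both (12.5%, beside 30.8%), and 12 had opposite signs. With the mean of all kept probes of a gene, 20 members were above 0 on both arrays and 6 below 0 on both. The split also depends on the normalisation. When each array was centred on its median instead of by intensity-dependent loess, 38 members were above 0 on both arrays, beside 64.9% of all genes, and none was below 0 on both.

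**Figure D1:**
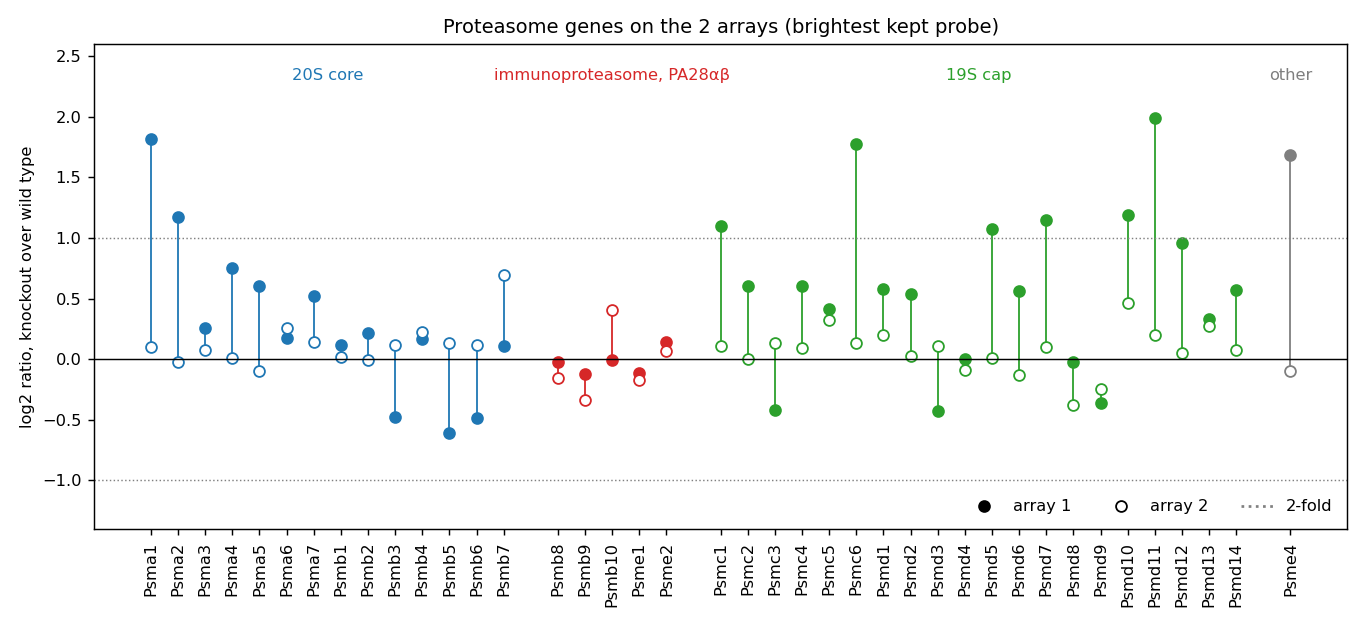
Log2 ratio of knockout over wild type (vertical axis) for each of the 40 measured members (horizontal axis), from the brightest kept probe. Filled points are array 1, open points array 2, a line joins the 2 values of a gene, and dotted lines mark 2-fold. Filled points above the upper dotted line belong to 9 genes of the core, the cap and PA200, while every open point lies between the dotted lines.

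The 5 immunoproteasome members lay closest together on array 1. Their log2 ratios there ran from -0.12 to 0.14, an SD across genes of 0.11, against 0.65 for the 14 measured core genes and 0.67 for the 20 cap genes. On array 2 the order was not the same: the SD across genes was 0.29 for the immunoproteasome and 0.19 for core and cap. The classes also differed in brightness. Their median brightness lay at percentile 97.2 of all measured genes for the immunoproteasome, 89.7 for the core and 73.8 for the cap. The part of brightness in the class differences was not tested.

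Psmb8, the beta5i subunit with chymotrypsin-like activity, had mean spot signals before normalisation of 62316 (knockout) and 15926 (wild type) on array 1 and of 58192 and 24201 on array 2. With arrays only centred on the median, the median log2 ratio over all measured genes was 1.11 (array 1) and 0.18 (array 2), an offset that loess takes out by intensity. After loess the log2 ratios of Psmb8 were -0.02 and -0.16, with a mean of -0.09 ± 0.09 (SD, n = 2; 95% interval -1.06 to 0.88, limma adjusted p = 0.981). A second probe gave -0.19 and -0.09. Both lie on chromosome 17 in the MHC region, the first at 33811038 to 33811097 and the second at 33811095 to 33811419 on mm8, the build of the array design.

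Psmb9, the beta1i subunit, lies nearby on chromosome 17 (probe at 33792517 to 33792576). Its signals were 45640 in knockout and 12713 in wild type on array 1, and 54483 and 25676 on array 2. The log2 ratios were -0.12 and -0.34, the lowest mean of the 5 members at -0.23 ± 0.15 (SD, n = 2; adjusted p = 0.951, limma). Psmb10, the beta2i subunit on chromosome 8 (108824906 to 108824965), had signals of 145907 and 35099 on array 1 and 134823 and 35528 on array 2. Its log2 ratios were -0.0052 and 0.40, so it was level on array 1 and the highest of the 5 on array 2.

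The genes of PA28, a ring that caps the core and opens it, lie near each other on chromosome 14 (Psme1 probe at 54535428 to 54535487, Psme2 probe at 54541569 to 54541628). Psme1 had signals of 153539 in knockout and 39602 in wild type on array 1, and of 119297 and 46323 on array 2, which gave log2 ratios of -0.11 and -0.17. Psme2 had signals of 49112 and 11483 on array 1 and of 142163 and 46200 on array 2, with log2 ratios of 0.14 and 0.07. Both Psme2 signals were higher on array 2, while its ratio changed little. Another Psme2 probe gave 0.27 and -0.0055. By the brightest probes the difference between the log2 ratios of Psme1 and Psme2 was nearly the same on the arrays, -0.26 and -0.24. It was less alike with the other Psme2 probe, and also with the scanner software's log ratio.

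As a class the immunoproteasome had median log2 ratios of -0.02 (array 1) and -0.16 (array 2). Of its 5 members, 3 were below 0 on both arrays, beside 30.8% of all genes, and 1 was above. These signs depend on the normalisation. By the scanner software's log ratio only Psme1 was below 0 on both, while Psmb8, Psmb9 and Psme2 had opposite signs. All 5 were above 0 on both with median centring. With median centring the class median of the mean ratio was 0.98, above the 0.68 of all genes, so its position relative to all genes turns with that choice. Its median lay below that of the core by 0.22 on array 1 and by 0.26 on array 2, and by 0.12 for the mean ratio with median centring. No test was made of this difference, since 2 arrays allow no exact p below 0.5.

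The constitutive catalytic subunits had opposite signs on the arrays in 2 of 3 cases. Psmb5 (beta5) had signals of 24118 in knockout and 9687 in wild type on array 1, and of 20957 and 8219 on array 2. Its log2 ratios were -0.61, the lowest of all members on that array, and 0.14. Psmb6 (beta1) had signals of 37796 and 13547 on array 1 and of 45558 and 16367 on array 2, with log2 ratios of -0.49 and 0.12. Psmb7 (beta2) had signals of 3895 and 1626 on array 1 and of 5762 and 2038 on array 2. Its log2 ratios were 0.11 and 0.69, the highest of all members on array 2. The genomic span of its probe is 20420 bases on chromosome 2 (38435455 to 38455874, mm8), more than the 60 of an unspliced probe.

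Set against the subunit it replaces, each immunoproteasome gene gave these differences of log2 ratios within an array. Psmb8 minus Psmb5 was 0.59 on array 1 and -0.29 on array 2. Psmb9 minus Psmb6 was 0.37 and -0.46. The difference of Psmb10 and Psmb7 was -0.11 and -0.29. The first 2 pairs thus changed sign between the arrays, and the third stayed below 0 on both. The sign of the third depends on the normalisation. With median centring Psmb10 (1.56 and 1.06) lay above Psmb7 (1.26 and 0.87) on both arrays.

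**Figure D2:**
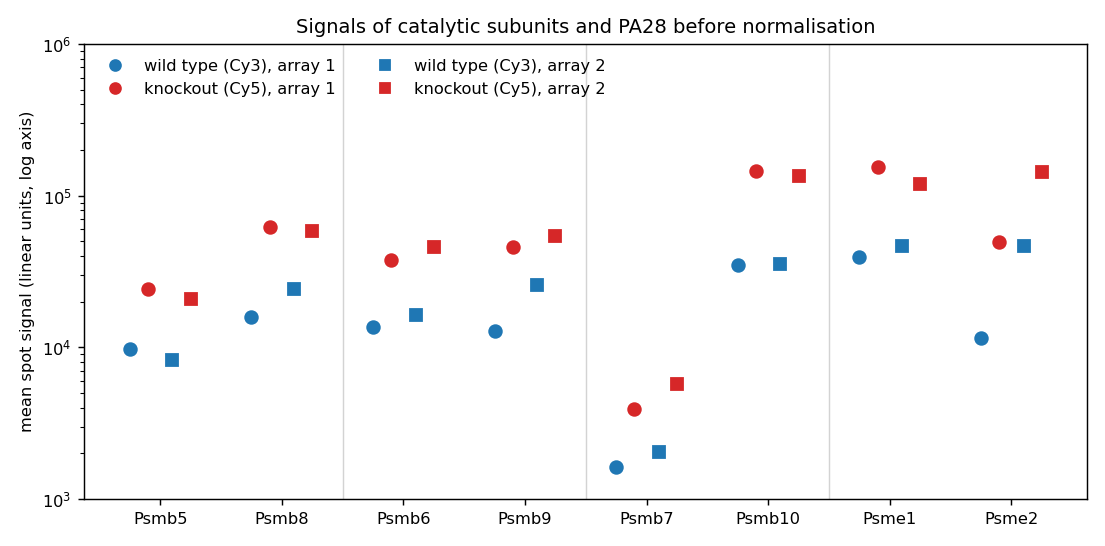
Mean spot signal in linear units before background correction and normalisation (vertical log axis) of the 3 constitutive catalytic subunits, each beside the immunoproteasome subunit that replaces it, and of both PA28 genes. Circles are array 1, squares array 2, red is knockout in Cy5 and blue wild type in Cy3; colours are to be compared within a gene, not between genes. The knockout signal is the higher for every gene before normalisation, and the Psme2 signals of both genotypes are higher on array 2.

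The 7 measured alpha-ring genes, whose ring forms the gate of the core, were all above 0 on array 1, from 0.17 to 1.81 in log2 ratio, and ran from -0.09 to 0.25 on array 2. Psma1 had signals of 33646 in knockout and 3024 in wild type on array 1, and of 29959 and 11495 on array 2. Its log2 ratios were 1.81 and 0.10, with a mean of 0.96 ± 1.21 (SD, n = 2; adjusted p = 0.524, limma). The wild-type signal was the one that differed between the arrays. Psma4 (0.75 and 0.01), Psma7 (0.52 and 0.14) and Psma6 (0.17 and 0.25) were also above 0 on both. Psma2, chosen after its values were seen as the other alpha gene past 2-fold on array 1, had 1.18 and -0.02.

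The 4 structural beta subunits, the non-catalytic members of the beta rings, did not share a direction. Psmb4 had log2 ratios of 0.17 and 0.23, and Psmb1 had 0.12 and 0.02. Psmb3, chosen after its values were seen, had -0.48 and 0.11, and its second kept probe gave -1.07 and -0.09. Over the whole core, 8 of 14 measured genes were above 0 on both arrays (57.1%, beside 30.9% of all genes). None was below 0 on both, beside 30.8%, and 6 had opposite signs. The class medians were 0.19 on array 1 and 0.11 on array 2.

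The 19S cap had the highest class median on array 1, 0.58, and a median of 0.10 on array 2. Of its 20 genes, 14 were above 0 on both arrays (70%, beside 30.9% of all genes, or 64.9% with median centring). Below 0 on both were 2 (10%, beside 30.8%), and 4 had opposite signs. Psmc4, Psmc5, Psmc6, Psmd2, Psmd7 and Psmd14 are among the 14 by their brightest probe, but would not be by their second kept probe. On array 1, 6 cap genes were more than 2-fold higher (30%, beside 21.1% of all genes). All 20 lay within 0.5 of 0 on array 2, as did 8098 of all 9273 genes.

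Among the 6 ATPases of the cap's base, which unfold the substrate and open the gate, Psmc6 stood highest. Its signals were 26557 in knockout and 2577 in wild type on array 1, and 26603 and 10141 on array 2. The knockout signal was thus nearly equal on the arrays, and the log2 ratios were 1.77 and 0.13 (mean 0.95 ± 1.16 SD, n = 2; adjusted p = 0.527, limma). Psmc1 had log2 ratios of 1.10 and 0.11, Psmc4 had 0.61 and 0.09, and Psmc5 had 0.42 and 0.32, the closest pair of values among the 6. A second kept Psmc5 probe gave -0.10 and 0.23, of opposite sign. The base's non-ATPase members Psmd1 and Psmd2, the large scaffolds that bind substrate shuttles, had log2 ratios of 0.58 and 0.20 (Psmd1) and of 0.54 and 0.03 (Psmd2).

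The lid removes ubiquitin chains, and Psmd11 is one of its scaffold subunits. It had signals of 27432 in knockout and 2359 in wild type on array 1, and of 25095 and 9281 on array 2. The log2 ratios were 1.99 and 0.20, with the highest mean of the members in the main analysis at 1.09 ± 1.27 (SD, n = 2; 95% interval 0.12 to 2.07, adjusted p = 0.391, limma). In size this mean ranked 652nd of the 9273 genes. Psmd7 had log2 ratios of 1.15 and 0.10, Psmd12 had 0.96 and 0.05, and Psmd14, the deubiquitinase of the lid, had 0.57 and 0.08. By the brightest probe all 4 were above 0 on array 1 and within 0.2 of 0 on array 2. However, a second Psmd14 probe gave -0.08 on array 1, and a second Psmd7 probe gave -0.29 on array 2.

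The chaperones that assemble the base did not share a direction. Psmd10 (gankyrin) had signals of 2497 in knockout and 1094 in wild type on array 1, and of 2829 and 1347 on array 2, with log2 ratios of 1.19 and 0.46. It was the highest of all cap genes on array 2, with a mean of 0.83 ± 0.51 (SD, n = 2; adjusted p = 0.658, limma), and its wild-type signal on array 1 was not well above background. Psmd5 had log2 ratios of 1.08 and 0.01, also with a dim wild-type signal on array 1. The means of both moved with the background correction, to 2.54 (Psmd10) and 1.57 (Psmd5) with the scanner software's log ratio, above the 1.10 of Psmd11 there, and to 0.43 and 0.28 without background correction. Psmd9 had -0.36 and -0.24, the lowest mean of any member at -0.30 ± 0.08 (SD, n = 2), but 0.14 with median centring.

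Of the activators and inhibitor outside these classes, the one measured was Psme4, the single-chain activator PA200, named after its values were seen. Its signals were 24257 in knockout and 2522 in wild type on array 1, and 17298 and 8028 on array 2. The log2 ratios were 1.68 and -0.10, of opposite sign.

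For most members that were high on array 1, the wild-type signal was the one that differed between the arrays. For the 9 more than 2-fold higher on array 1, the wild-type signal differed between the arrays by a median log2(array 2 / array 1) of 1.67 (0.30 to 2.29), and the knockout signal by a median of 0.0025 (-0.49 to 1.54). For the other 31 the medians were 0.60 in wild type and 0.16 in the knockout. Over all measured genes they were 0.45 and 0.38. On array 2 the 9 genes had log2 ratios from -0.10 to 0.46, with a median of 0.10, beside 0.08 for the other 31. The wild-type signal of array 1 enters both the ratio and this difference, so these values describe the arrays and carry no test. Across the 40 members the ratios of the arrays had a Pearson correlation of 0.11, and across all measured genes of 0.29. These are correlations across genes of the same 2 arrays, and genes are not independent replicates.

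**Figure D3:**
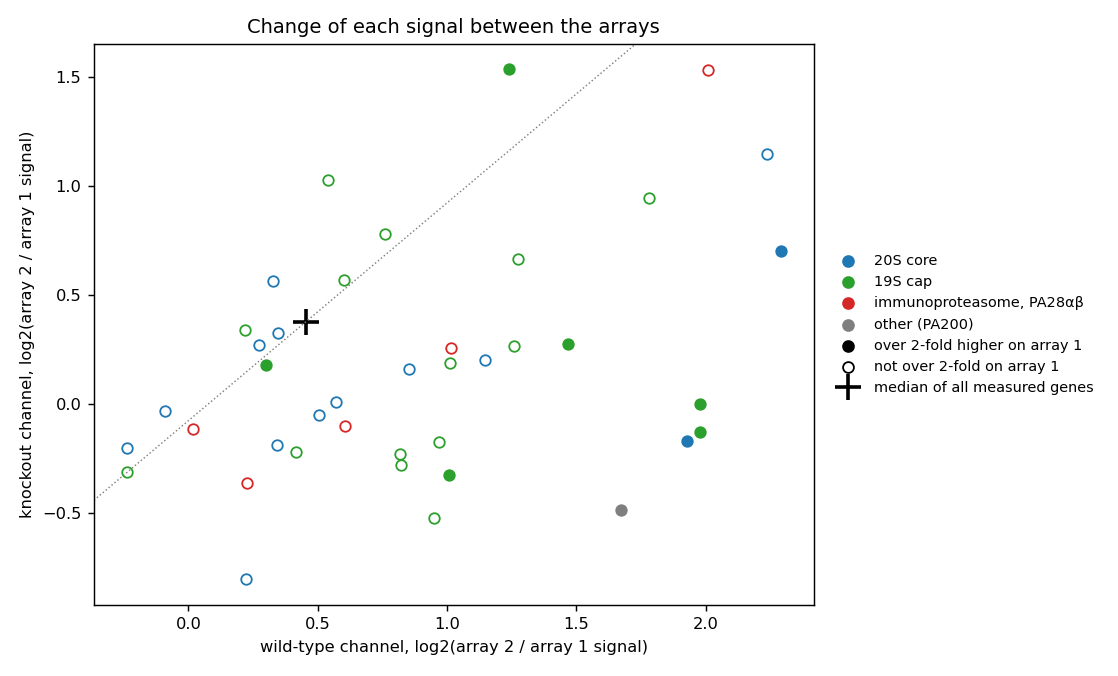
Log2 of array 2 over array 1 of the signal before normalisation, in the wild-type channel (horizontal axis) and the knockout channel (vertical axis), for the 40 measured members coloured by class. Filled points are the 9 members more than 2-fold higher in the knockout on array 1, the cross is the median of all measured genes (0.45 and 0.38), and the dotted line through it marks an equal change of both channels. Of the 9 filled points, 8 lie to the right of or below the dotted line, where the wild-type signal changed more than the knockout signal relative to all genes.

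Probes of the same gene gave a measure of technical spread. Of the 40 members, 11 had a second kept probe, which differed from the brightest one by a median of 0.52 in log2 ratio on array 1 (at most 0.65) and 0.15 on array 2 (at most 0.39). On array 1 the brightest probe gave the higher ratio in 9 of the 11. For Psmd7 the second probe gave 0.82 and -0.29, and for Psma4 0.87 and 0.05, so these genes were high on array 1 by both probes. For Psmc6 it gave 1.14 and -0.02, but its wild-type signal on array 1 was not well above background. The scanner software's log2 ratio of that Psmc6 probe was 4.17 on array 1. For Psmd2 (-0.01 and -0.18) and Psmd14 (-0.08 and -0.14) the second probe gave a mean of the opposite sign, and for Psmc4 (0.01 and -0.01) one near 0. On array 1 the values of these 3 genes differ between probes by about as much as the brightest probe differs from 0.

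**Figure D4:**
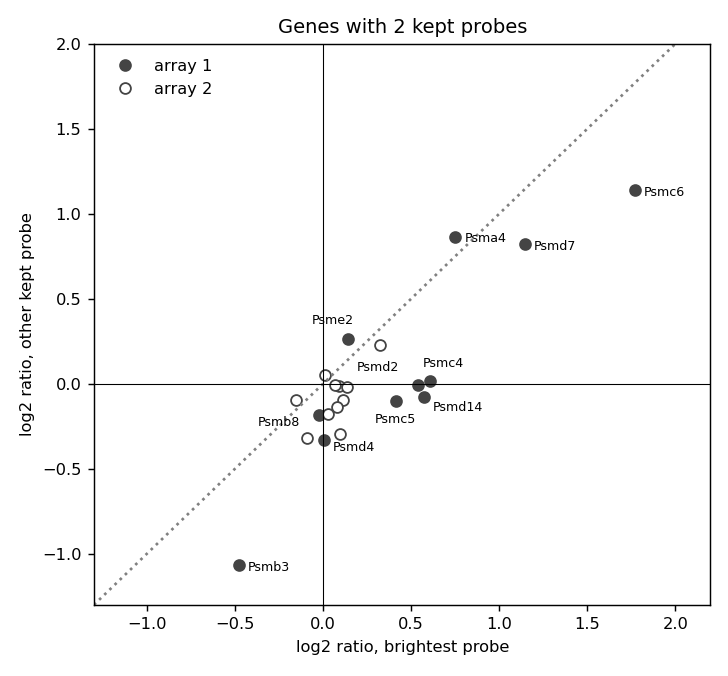
Log2 ratio of knockout over wild type from the brightest kept probe (horizontal axis) and from the other kept probe (vertical axis) for the 11 members with 2 kept probes. Filled points are array 1 and carry the gene's name, open points are array 2, and the dotted line marks equal values. Psmc6, Psmd7 and Psma4 are above 0 by both probes on array 1, while Psmc4, Psmd2, Psmd14 and Psmc5 are above 0 by the brightest probe and between -0.10 and 0.01 by the other.

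Genes that work with the proteasome also had higher median ratios on array 1 than on array 2. Of 16 partners outside the rule (assembly factors, proteasome-bound ubiquitin enzymes and the Nrf factors that drive subunit genes), 14 were measured and 0 called by limma, with 2 at an unadjusted p under 0.05. Their median log2 ratios were 1.11 on array 1 and 0.21 on array 2, and 9 of 14 were above 0 on both. Beside this and the like counts of the next 2 lists stands 30.9% of all measured genes. That share depends on the normalisation and was 64.9% with median centring. Zfand5, which binds and activates the proteasome, had 2.11 and 0.43. Ube3a, a proteasome-associated ubiquitin ligase, had 1.76 and 0.20, and Pomp, the maturation factor of the core, had 1.42 and 0.46. The wild-type signals of Zfand5 and Ube3a on array 1 were not well above background, and their means ran from 0.74 and 0.70 without background correction to 2.95 and 1.49 with the scanner software's log ratio.

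Ubiquitin genes, the p97 segregase complex and shuttle factors made a list of 22, with 18 measured and 0 called by limma, 3 of them at an unadjusted p under 0.05. Their medians were 0.94 and 0.18, and 11 of 18 were above 0 on both arrays. Skp1, part of SCF ubiquitin ligases, had 2.24 and 0.23, and the shuttle factor Ubqln1 had 1.86 and 0.34.

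The peptide-loading and interferon regulators linked to the immunoproteasome numbered 20, with 19 measured and 0 called by limma, 5 of them at an unadjusted p under 0.05, beside the 9.75% of all genes that also stands against the counts of the lists above. Their medians were 0.38 and 0.09, with 8 of 19 above 0 on both arrays and 4 below 0 on both. Irf2, a transcription factor of the interferon pathway, had log2 ratios of 2.79 and 0.38 (adjusted p = 0.075, limma), with a wild-type signal on array 1 that was not well above background. It passed with a normexp offset of 0 (adjusted p = 0.048), with the mean of all kept probes (0.048) and with a robust, intensity-trended spread (0.033), and its adjusted p reached 0.636 over the alternatives. Pdia3 and Canx, chaperones of MHC class I folding, had log2 ratios of 2.33 and 0.43 (Pdia3) and of 2.44 and 0.22 (Canx).

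Some markers of other cell types differed between the genotypes. Of 15 measured myeloid and dendritic markers, out of a list of 18, 5 passed the test as higher in the knockout (Adgre1, Csf1r, Itgax, Lyz2 and C1qc; limma, adjusted p under 0.05). For Lyz2 the log2 ratios were 4.03 and -0.38, of opposite sign, and the other 4 were above 0 on both arrays. Of the 15 markers, 13 were above 0 on both arrays, and Cd14 was below 0 on both (-0.40 and -0.08). Before normalisation, the summed signal of the 15 was 61922 in knockout and 16302 in wild type on array 1, and 106739 and 35793 on array 2. In wild type 2 of the 15 were well above background on array 1 and 10 on array 2; Adgre1, a macrophage marker, was not on either. Of 11 measured NK cell markers, out of 12, 4 were called higher (Klrb1c, Tyrobp, Fcer1g and Cd244a). The calls of both lists stand beside 1.49% of all measured genes. Of the 11, 9 were above 0 on both arrays, Prf1 was below 0 on both (-0.55 and -1.25) and Ncr1 had opposite signs (-0.20 and 0.86). Summed signals of the 11 were 226009 in knockout and 40971 in wild type on array 1, and 462618 and 76971 on array 2. The 13 T cell markers, none of them called, had sums of 1179010 and 241659 on array 1 and 1073010 and 341032 on array 2, so all these sums include the offset between the channels. Of these 13, 8 were above 0 on both arrays and 3 below 0 on both. Cd5 (-0.69 and -1.80) and Cd6 (-0.58 and -1.79) passed 2-fold on array 2, beside 2.84% of all genes. An unadjusted p under 0.05 (limma) was found for 4 of the 13, beside 9.75%. Of the B cell and erythroid lists, 5 of 9 and 1 of 6 genes were measured and none was called. Whether the RNA of these markers came from other cells or from the sorted CD8+ T cells themselves was not tested. The part of other cells in the proteasome values was not tested either. In bulk RNA a different number of cells of a type and a different amount of RNA per cell cannot be told apart.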

How the data were processed

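RNA of sorted naive CD8+ T cells was hybridised on 2 arrays (knockout Cy5, wild type Cy3; replicates 1 and 2 as labelled, same slide and scan). The submitters' processing notes name Agilent Feature Extraction 9.5.3.1 as the scanner software. The files deposited give each spot's mean signal and median local background as linear intensity, not normalised, and background flags, per the file headers. They also give a log10 ratio of red over green, background-subtracted and dye-normalised by the scanner software, per the file headers. The deposited value table equals that log10 ratio within 0.005, with column medians of 0 and 0.

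Background was corrected by normexp (offset 50; limma 3.58.1, R 4.3.3). Loess within each array, in which control spots and flagged spots had weight 0, gave log2 ratios. Unspecific signal exceeded local background: negative control spots had medians of 985 and 1865 in Cy5 and of 1087 and 1120 in Cy3, against local backgrounds of 35 to 51.5. Ratios of dim genes depended on how this was corrected: the mean log2 ratio of Psmd10 was 0.83 with normexp and 0.43 without background correction. Spots of a probe were averaged. Kept probes were those well above background on both arrays in at least 1 common channel, and the brightest of them stood for its gene, giving 9273 genes. No array carried a dye swap. The number of arrays limits the precision.

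Mean log2 ratios were tested against 0 with lmFit and eBayes (two-sided, Benjamini-Hochberg over 9273 genes, threshold 0.05). The 2 arrays leave 1 residual degree of freedom per gene. The prior degrees of freedom were infinite, so all genes share 1 standard error, and the smallest passing mean was 1.68 in size. Errors are SDs between arrays. Probe names followed the RefSeq table of GRCm38.p6 by accession (24375 of 41174 gene probes), current symbol (6301) or older symbol (2426), and 8072 kept the name in the files.

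Members, classes, companion and marker lists were chosen with earlier results of these data known. Genes were named by rule: Bcl11b; the immunoproteasome and constitutive catalytic genes; per role up to 4 members with the largest mean among those of the same sign on both arrays; members whose probes differ in sign of the mean; and per companion list the genes past the threshold or, failing that, up to 3 with the largest mean of the same sign on both arrays. Of the genes this rule names, 1 is not reported here. Alternative settings varied background correction, normalisation, filter, probe summary, spread and replicates.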

Additional observations from a re-analysis of the deposited data

How the results depend on the processing

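No proteasome gene passed the threshold under any of the 10 alternatives with a test, where the smallest adjusted p of a member ran from 0.117 to 0.636. In 4 of them no gene of the array passed at all, so they say nothing about the members. Over all genes 115 were called higher and 23 lower. The counts were 27 and 8 without background correction, 63 and 1 with median centring, 25 and 14 with both channels well above background, 218 and 45 with a trended robust spread, and 0 and 0 with the scanner software's log ratio, the deposited value table, scaling between arrays or no filter on dim probes. At an unadjusted p under 0.05 those 4 had 574, 569, 1026 and 2478 genes. Median centring moved the median of all genes from 0.04 to 0.68, and the class medians to 1.10 (core), 0.98 (immunoproteasome) and 1.11 (cap), each above that of all genes. It turned the mean log2 ratio positive for all 11 members below 0: Psmb5 (0.69), Psmb6 (0.82), Psmb8 (0.95), Psmb9 (0.80), Psmd9 (0.14), Psme1 (0.98), Psmb3, Psmc3, Psmd3, Psmd4 and Psmd8. Immunoproteasome minus core, -0.29 in the main analysis, was -0.12 with median centring, -0.33 with the scanner software's log ratio, with the value table and with scaling, and -0.26 to -0.22 with 1 array left out. The core median was 0.11 to 0.19 and the cap median 0.10 to 0.58 with 1 array left out. The cause was not tested. Each ratio pairs 1 knockout with 1 wild-type sample, so the test is paired as it stands, and no replicate block could be added to 1 group of ratios. Leaving out an array left 1 ratio and hence values with no test. Depth is not given for arrays; signal near background limits Psmd1, Psmd5, Psmd10 and Psmd13.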

Other observations

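Current RefSeq names place other proteasome genes on the array under older names, outside the rule. Psmb11, the catalytic subunit of the thymus proteasome, had 2 probes, neither well above background in any of the 4 channels. The core assembly chaperones had log2 ratios of 0.83 and -0.20 for Psmg1, 0.18 and -0.12 for Psmg2 and -0.58 and -0.04 for Psmg3, with none called by limma (adjusted p = 0.933 for Psmg1, 0.994 for Psmg2 and 0.933 for Psmg3). The interferon pathway regulator Irf1, chosen after its values were seen, had log2 ratios of -0.65 and -0.46, below 0 on both arrays, whereas Irf2 was above 0 on both. The peptide transporter genes Tap1 (-0.53 and -0.07) and Tap2 (-0.60 and 0.09), also chosen after their values were seen, lie beside Psmb9 and Psmb8 in the MHC region. Their log2 ratios were at or below 0.09 on both arrays, and neither was called. Of the 19 measured genes of their list, 8 were above 0 on both arrays and 4 below 0 on both. Among those above were B2m (1.02 and 0.55), H2-K1 (0.38 and 0.91) and H2-D1 (0.12 and 0.70).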
